A study of Mus musculus with 6 samples.

Results

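YAP1 and TAZ, the product of Wwtr1, are transcriptional co-activators of the Hippo pathway, which restrains tissue growth and reads cell shape and matrix stiffness. When the kinases of the pathway are inactive, the co-activators enter the nucleus and bind the TEAD proteins, which supply the contact with DNA, and in osteoblast-lineage cells TAZ is also known as a partner of Runx2. Their targets include the secreted matricellular proteins Ccn1 (Cyr61) and Ccn2 (Ctgf), the ankyrin-repeat protein Ankrd1, and Amotl2 and Lats2, which act back on the pathway as inhibitors. The 10 genes examined were Yap1, Wwtr1, Tead1, Tead2, Tead3, Ccn1, Ccn2, Ankrd1, Amotl2 and Lats2. They were chosen by name, with earlier results of these data known. All 10 were found by Ensembl identifier among the 29616 genes of the table.

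RNA was sequenced from 3 control libraries and 3 libraries from mice treated with dexamethasone, a synthetic glucocorticoid. The mice were of the C57BL/6 strain, with no transgene or other allele named in the labels, and treatment at 0.08 µg/g daily began at 8 weeks of age and lasted 4 weeks, while control mice received saline. The labels call the material bone cells, and the methods of the study describe cells freed with collagenase from flushed femurs, fixed, made permeable and sorted as Osteocalcin-positive with an antibody. The series describes the libraries as biological replicates, although neither their sex nor whether a library came from 1 mouse or from pooled mice was given in the sources used here. Values are normalized counts, that is, reads per gene divided by a size factor per library. Recovered depth was 72596611 to 89910728 reads per library, and each of the 10 genes had at least 966 reads in every library. The coefficient of variation of the 10 genes within a group was 0.570% to 5.94%, where counting error alone gives 0.574% to 3.09%, so the p-values rest on a spread close to counting error for several of them. Since the cells were sequenced in bulk, fewer cells that express a gene and less RNA per cell cannot be told apart.

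Dexamethasone moved the pathway genes in opposite directions. Ccn2 rose 9.60-fold and Wwtr1 2.96-fold, whereas Amotl2 fell 5.34-fold and Ccn1 1.73-fold. A gene was called differentially expressed where limma gave it an adjusted p-value under 0.05, over all tested genes, and its log2 fold change reached 1 or -1. By this rule 4 of the 10 genes were called, Ccn2, Wwtr1 and Tead2 upward and Amotl2 downward, against 22.3% of the 17442 genes tested. In single directions the call was made for 11.7% of tested genes upward and 10.6% downward. All 10 genes had an adjusted p-value under 0.05, with 5 higher and 5 lower, but so had 72.5% of tested genes, 37.2% higher and 35.2% lower. The values of the control and dexamethasone libraries did not overlap for any of the 10 genes, as for 74.7% of tested genes. The median log2 fold change of the 10 genes was -0.056, beside 0.00 for all tested genes, and the median absolute value was 0.74 beside 0.45.

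**Figure D1:**
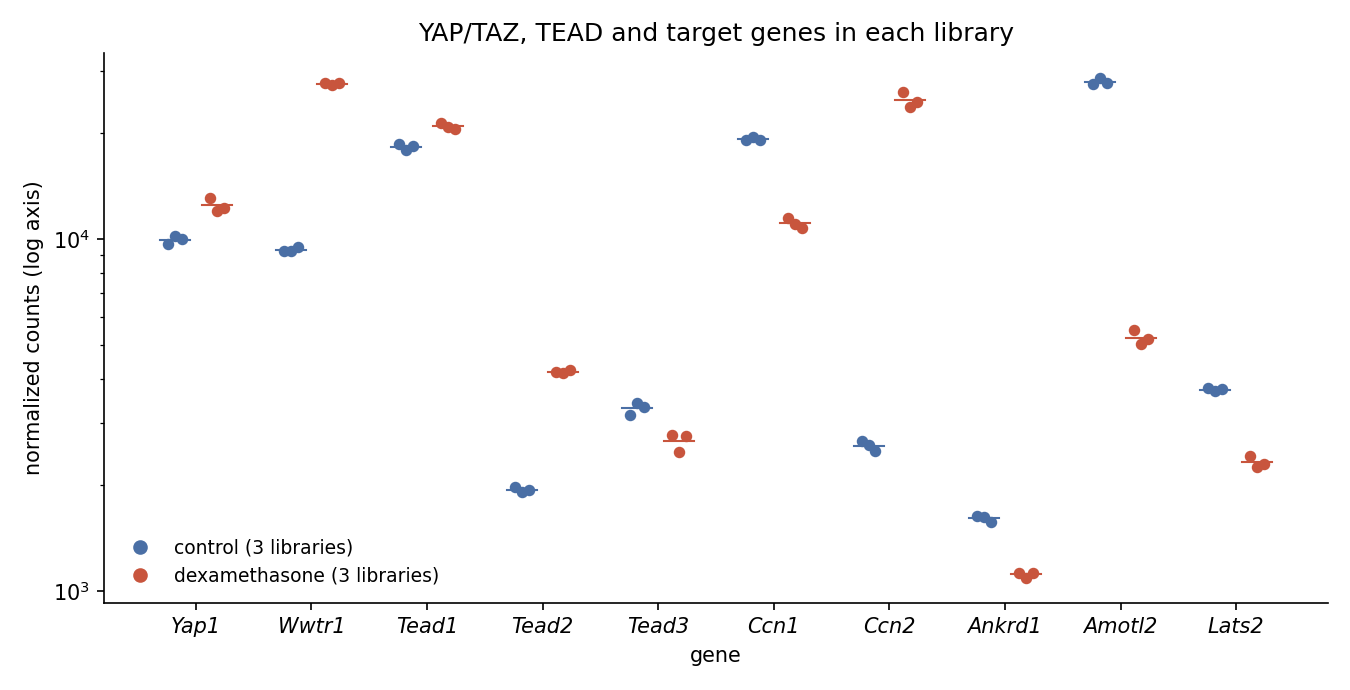
Normalized counts (log axis) of the 10 genes in each of the 3 control (blue) and 3 dexamethasone (red) libraries, with 1 point per library and a short line at the group mean. Wwtr1, Tead2 and Ccn2 stand well higher with dexamethasone, Amotl2 stands well lower, and the points of a group lie close together for every gene.

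TEAD proteins recognise a short element with the letters GGAATG, or CATTCC on the other strand. Upstream sequences are shown for 1 gene that rose and 3 that fell, to show that such letters stand near the starts of genes that moved in either direction, and were chosen with their matches known. RefSeq promoter windows of 250 bases before to 50 after a transcription start (GRCm38.p6) were matched for 8 of the 10 genes, all but Tead1 and Ccn2. The letters were found on 1 strand or the other in 9 of the 12 windows of these genes, and in 7 of the 8 genes, Tead2 being the exception. Of all 32851 windows given by RefSeq, 14.7% held them, and 16.6% of the 27025 genes with a window had them in any window. In Lats2 the only match lay after the start, at 5. Each sequence below is the 250 bases before the first start listed for the gene, 5′ to 3′ on the strand of the gene, with the matches in capitals.
Wwtr1: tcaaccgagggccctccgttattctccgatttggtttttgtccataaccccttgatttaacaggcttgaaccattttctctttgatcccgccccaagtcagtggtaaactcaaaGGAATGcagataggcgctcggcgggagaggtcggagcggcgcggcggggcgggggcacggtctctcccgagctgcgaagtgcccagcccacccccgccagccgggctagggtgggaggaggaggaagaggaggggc
Ccn1: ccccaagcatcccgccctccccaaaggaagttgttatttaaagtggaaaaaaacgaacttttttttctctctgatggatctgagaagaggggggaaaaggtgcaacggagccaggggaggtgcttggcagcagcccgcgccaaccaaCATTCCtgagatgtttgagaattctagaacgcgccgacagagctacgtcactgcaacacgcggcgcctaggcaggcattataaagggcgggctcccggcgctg
Ankrd1: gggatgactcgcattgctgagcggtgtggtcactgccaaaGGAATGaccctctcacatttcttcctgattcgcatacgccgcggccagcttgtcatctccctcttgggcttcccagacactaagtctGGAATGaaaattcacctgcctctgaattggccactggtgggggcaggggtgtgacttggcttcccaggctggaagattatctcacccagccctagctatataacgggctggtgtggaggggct
Amotl2: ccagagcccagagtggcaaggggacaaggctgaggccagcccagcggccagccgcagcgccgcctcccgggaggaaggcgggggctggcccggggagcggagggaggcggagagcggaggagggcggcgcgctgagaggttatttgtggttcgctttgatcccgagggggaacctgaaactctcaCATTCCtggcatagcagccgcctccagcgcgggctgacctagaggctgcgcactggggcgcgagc
These stretches lie on the minus strand at chr3:57575911-57576160 (Wwtr1), chr3:145649986-145650235 (Ccn1) and chr19:36119845-36120094 (Ankrd1), and on the plus strand at chr9:102717554-102717803 (Amotl2). Counted from the start, the first base of the match was at -136 in Wwtr1, at -103 in Ccn1, at -210 and -123 in Ankrd1 and at -65 in Amotl2. The match reads GGAATG along the gene in Wwtr1 and Ankrd1 and CATTCC in Ccn1 and Amotl2. Yap1, which rose less, held GGAATG at -141. A glucocorticoid receptor element, searched as GNACA and TGTNC with 3 free bases between them and the same on both strands, was in 0 of the 12 windows and in 0.475% of all windows. The AP-1 letters TGACTCA, or TGAGTCA on the other strand, were in 0 of the 12 and in 5.20% of all. A match is a description of the letters, and their absence says only that they are not in these windows.

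The co-activators both rose, Wwtr1 far more than Yap1. Wwtr1 had 9237, 9243 and 9506 normalized counts in the control libraries, in the order of their replicate numbers 1, 2 and 3 kept throughout, and 27731, 27439 and 27688 in the dexamethasone libraries. Every dexamethasone library was far above every control library, and the 3 dexamethasone values were nearly identical. The log2 fold change was 1.57 (SE 0.0337, adjusted p = 8.28e-23 by limma). Yap1 had 9675, 10209 and 9970 normalized counts in the control libraries, and 13100, 12032 and 12210 in the dexamethasone libraries. The groups stood apart by less than for Wwtr1, with a log2 fold change of 0.32 (SE 0.0378, adjusted p = 4.05e-08 by limma), under the cut-off of 1. The value for Yap1 was 0.21 with libraries scaled to an equal total and 0.15 after quantile normalization, where the medians of all tested genes were -0.11 and -0.075. Within each library, the log2 ratio of Wwtr1 to Yap1 does not depend on the size factor. This ratio was -0.093 ± 0.044 (SD, n = 3) in control and 1.15 ± 0.0598 (SD, n = 3) with dexamethasone, a difference of 1.24 (exact two-sided permutation test, p = 0.1, Benjamini-Hochberg adjusted p = 0.1 over 5 such ratios). With 3 against 3 libraries, 0.1 is the smallest p-value this test allows. On the scale of normalized counts per kilobase of exon, Wwtr1 made up 64.5% ± 0.695 (SD, n = 3) of the summed level of the pair in control and 81.1% ± 0.639 (SD, n = 3) with dexamethasone. The summed level of the pair per kilobase was 3027 ± 44.9 (SD, n = 3) in control and 7124 ± 88.7 (SD, n = 3) with dexamethasone.

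The DNA-binding partners moved apart from each other. Tead2 had 1971, 1906 and 1929 normalized counts in the control libraries, and 4190, 4161 and 4244 in the dexamethasone libraries. The lowest dexamethasone value was above every control value by more than the spread of either group. The log2 fold change of Tead2 was 1.12 (SE 0.0393, adjusted p = 2.36e-18 by limma). With libraries scaled to an equal total it was 1.00, and it was 0.96 after quantile normalization, where the call was lost. Tead1, the most counted of the TEAD genes in control, had 18620, 17871 and 18361 normalized counts in control and 21404, 20841 and 20483 with dexamethasone. The groups did not overlap, and its log2 fold change was 0.19 (SE 0.0349, adjusted p = 2.58e-05 by limma). This direction depended on the scaling, since the value was 0.079 at an equal total and -0.015, above the median of all genes, after quantile normalization (adjusted p = 0.634 by limma), with adjusted p-values from 9.12e-09 to 0.634 over 19 alternatives. Tead3 had 3154, 3407 and 3337 normalized counts in control and 2768, 2487 and 2756 with dexamethasone. All 3 dexamethasone values were below the control values, and the log2 fold change was -0.31 (SE 0.0458, adjusted p = 1.94e-06 by limma). The log2 ratio of Tead1 to Tead2 fell from 3.24 ± 0.0109 (SD, n = 3) to 2.32 ± 0.0417 (SD, n = 3), and that of Tead1 to Tead3 went from 2.47 ± 0.0857 (SD, n = 3) to 2.97 ± 0.0880 (SD, n = 3). For each of these ratios the exact two-sided permutation test gave p = 0.1, the smallest it allows here.

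Tead4, the remaining gene of the TEAD family, belongs here because it changed the makeup of the family most. It had 1305, 1259 and 1211 normalized counts in the control libraries, and 11191, 10213 and 10448 in the dexamethasone libraries, a log2 fold change of 3.08 (SE 0.0424, adjusted p = 1.8e-26 by limma). Per kilobase of exon, Tead4 made up 13.5% ± 0.443 (SD, n = 3) of the summed level of Tead1 to Tead4 in control and 51.2% ± 0.793 (SD, n = 3) with dexamethasone. The share of Tead1 was 52.0% ± 0.675 (SD, n = 3) in control and 26.7% ± 0.544 (SD, n = 3) with dexamethasone. For Tead3 it was 19.0% ± 0.907 (SD, n = 3) and 6.90% ± 0.294 (SD, n = 3). Tead2 held 15.6% ± 0.133 (SD, n = 3) and 15.2% ± 0.495 (SD, n = 3), a like share in spite of its rise, because the summed level per kilobase was 2593 ± 22.0 (SD, n = 3) in control and 5766 ± 187 (SD, n = 3) with dexamethasone. These shares depend on the exon lengths used. In normalized counts not divided by length, Tead1 stayed above Tead4 with dexamethasone, at means of 20910 and 10617.

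**Figure D2:**
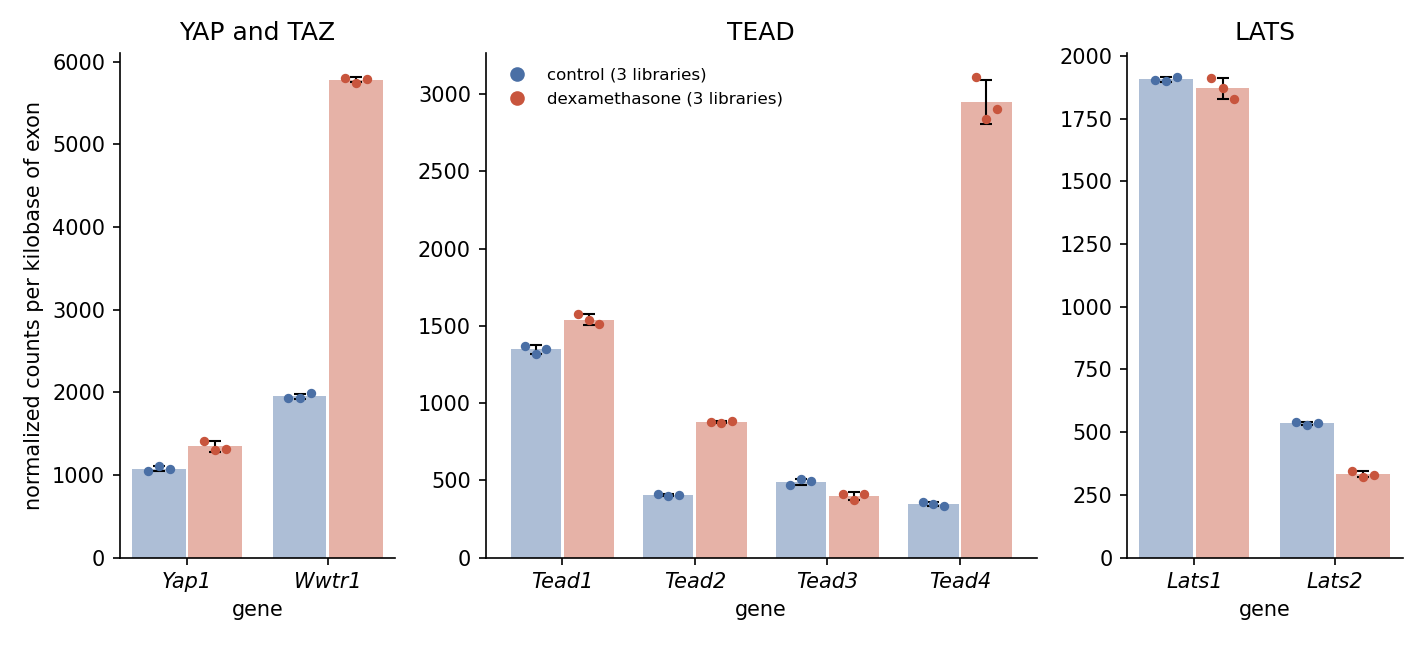
Normalized counts per kilobase of exon of Yap1 and Wwtr1 (left), Tead1 to Tead4 (middle) and Lats1 and Lats2 (right), each panel with its own axis from 0. Bars are means of 3 control (blue) or 3 dexamethasone (red) libraries, error bars are SD and points are libraries; Wwtr1 and Tead4 stand out with dexamethasone, whereas the points of Lats1 overlap between the groups.

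The CCN genes among the targets went in opposite directions. Ccn2, whose secreted product binds growth factors and integrins, had 2663, 2593 and 2503 normalized counts in the control libraries, and 26233, 23698 and 24544 in the dexamethasone libraries. Every dexamethasone value was far above every control value, and the log2 fold change was 3.26 (SE 0.0395, adjusted p = 2.12e-27 by limma). In the GENCODE M21 annotation, 23.2% of the exon bases of Ccn2 lie under the gene Gm15270 of the opposite strand, which had 13 to 33 reads per library. Ccn1, a related matricellular protein, had 19121, 19501 and 19086 normalized counts in control and 11490, 10998 and 10773 with dexamethasone. All dexamethasone values lay below the controls, with a log2 fold change of -0.80 (SE 0.0352, adjusted p = 2.74e-16 by limma), short of the cut-off. Within libraries, the log2 ratio of Ccn2 to Ccn1 was -2.89 ± 0.0456 (SD, n = 3) in control and 1.16 ± 0.0474 (SD, n = 3) with dexamethasone. The difference of 4.06 was the largest of the 5 ratios (exact two-sided permutation test, p = 0.1). Ccn1 thus had more reads than Ccn2 in all 3 control libraries and fewer in all 3 dexamethasone libraries.

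The other targets all fell, by different amounts. Amotl2, an angiomotin-family scaffold that holds YAP out of the nucleus, had 27540, 28669 and 27802 normalized counts in control and 5501, 5014 and 5207 with dexamethasone. It was the only 1 of the 10 genes called downward, with a log2 fold change of -2.42 (SE 0.0375, adjusted p = 1.37e-25 by limma). Lats2, a kinase that phosphorylates YAP and TAZ, had 3763, 3686 and 3743 normalized counts in control and 2418, 2251 and 2287 with dexamethasone. The groups were well apart, and the log2 fold change was -0.69 (SE 0.0408, adjusted p = 1.12e-13 by limma). The gene Gm49361, on the same strand, covers 42.4% of the exon bases of Lats2 in GENCODE M21. Reads there could have been left uncounted if the annotation of the authors holds it. No row of the deposited values was matched to Gm49361. Lats1, the paralogous kinase, had 13898, 13855 and 13982 normalized counts in control and 13949, 13660 and 13349 with dexamethasone, with overlapping groups and a 95% interval of its log2 fold change from -0.098 to 0.043. The value of Lats1, -0.027, was -0.14 at an equal total and -0.24 after quantile normalization (adjusted p = 0.000162 and 9.31e-08 by limma, with 9.31e-08 to 0.818 over the alternatives). The log2 ratio of Lats2 to Lats1 was -1.90 ± 0.0129 (SD, n = 3) in control and -2.56 ± 0.0383 (SD, n = 3) with dexamethasone (exact two-sided permutation test, p = 0.1). Ankrd1, a nuclear and sarcomeric ankyrin-repeat protein, had 1636, 1616 and 1570 normalized counts in control and 1126, 1090 and 1123 with dexamethasone. It had the lowest counts of the 10 genes and its log2 fold change was -0.53 (SE 0.0485, adjusted p = 4.86e-10 by limma).

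**Figure D3:**
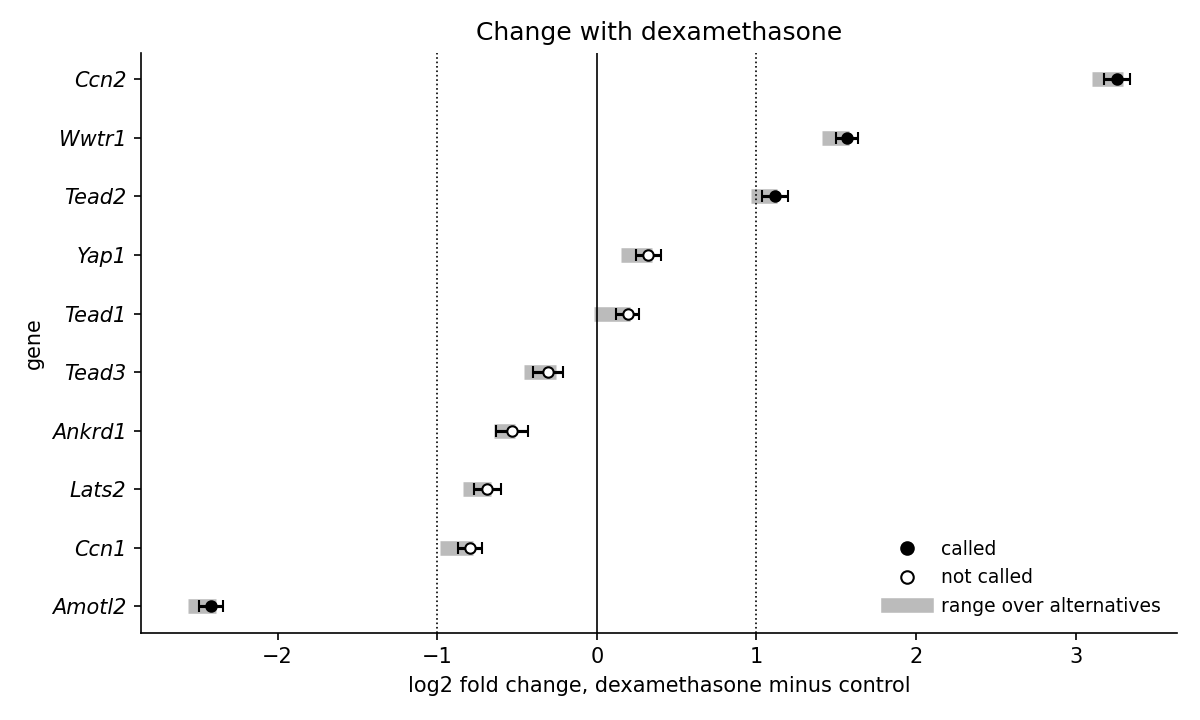
Log2 fold changes (dexamethasone minus control) of the 10 genes with 95% confidence intervals from limma, filled where the gene was called; grey bars span the values over all alternatives and dotted lines mark the cut-offs at -1 and 1. Ccn2, Wwtr1 and Tead2 lie above 1 and Amotl2 below -1, and the grey bars of Tead1 and Tead2 cross 0 and 1, respectively.

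The order of the genes by level changed with the treatment. In normalized counts per kilobase of exon, the control order from highest to lowest was Ccn1 (9527), Amotl2 (4453), Wwtr1 (1952), Tead1 (1347), Yap1 (1075), Ccn2 (904), Ankrd1 (557), Lats2 (535), Tead3 (491) and Tead2 (404). No neighbours in this order overlapped between libraries. With dexamethasone the order was Ccn2 (8677), Wwtr1 (5779), Ccn1 (5491), Tead1 (1541), Yap1 (1345), Tead2 (877), Amotl2 (833), Tead3 (398), Ankrd1 (386) and Lats2 (333). Here the libraries overlapped between Tead2 and Amotl2 and between Tead3 and Ankrd1, so that these neighbours could not be ordered. Among all tested genes with an exon length, Ccn2 moved from the 76.3 to the 98.2 percentile of the level per kilobase, Wwtr1 from 89.7 to 97.1, and Amotl2 from 96.4 to 72.2, while Ccn1 stayed high, at 98.5 and 96.9. The exon lengths came from GENCODE M21 and may differ from those of the annotation the authors used. The place of Lats2 is the least secure, since 42.4% of its exon bases lie under Gm49361. Reads there could have been left uncounted, which would put Lats2 too low in both orders.

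Genes around the pathway were grouped into 7 lists, of which 91 genes were tested and 39 called, 12 upward and 27 downward. This was 42.9% of them, beside 22.3% of all tested genes, but the lists were chosen with earlier results of these data known. In the Hippo kinase core 1 of 15 tested genes was called. At an adjusted p-value under 0.05 alone 8 rose and 3 fell, a share close to the 72.5% of all tested genes. The median log2 fold change of the core was 0.15 and the median absolute value 0.38, beside 0.45 for all tested genes. The called gene was Map4k4, a kinase that can act on the LATS kinases, with 17762, 18162 and 17951 normalized counts in control and 43881, 39442 and 40351 with dexamethasone (log2 fold change 1.20, adjusted p = 5.55e-19 by limma). Mob1a, an activating subunit of the LATS kinases, had a log2 fold change of 0.15 (adjusted p = 0.000709 by limma), which was 0.037 at an equal total and 0.049 after quantile normalization. Its adjusted p-values by limma there were 0.216 and 0.0983, in a range of 4.04e-06 to 0.216 over the alternatives. Sav1, the scaffold of the kinases, Mob1b and Stk3 had larger log2 fold changes, of 0.80, 0.62 and 0.54, and are named after their values were seen.

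Among 23 tested upstream and inhibitory regulators, 5 were called downward and 1 upward. Together this share was close to the 22.3% of all tested genes called, 10.6% downward and 11.7% upward. At an adjusted p-value under 0.05 alone 7 rose and 11 fell, beside 72.5% of all tested genes. The median log2 fold change was -0.098 and the median absolute value 0.36, beside 0.45 for all tested genes. Amot, a relative of Amotl2, had 26034, 27105 and 26757 normalized counts in control and 9094, 8580 and 8531 with dexamethasone, a log2 fold change of -1.61. Amotl1, another relative, went the other way without being called. Its means were 15188 normalized counts in control and 22737 with dexamethasone (log2 fold change 0.58). The atypical cadherins Fat4 and Dchs1, which form a receptor and ligand pair upstream of the pathway, had log2 fold changes of -2.37 and -2.92, Dchs1 from a mean of only 129 normalized counts. For the LIM-domain protein Ajuba, which binds the LATS kinases, the value was -2.08. The remaining called genes, named after their values were seen, were Rassf5 (-1.21) and Wwc1 (1.52). Ptpn14, a phosphatase that binds YAP, had the highest mean of the list and a log2 fold change of -0.45 (adjusted p = 7.33e-11 by limma), and Tnks2 had one of 0.038 (adjusted p = 0.355 by limma), which was -0.076 at an equal total and -0.13 after quantile normalization, the latter below the median of all genes.

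All 7 tested genes among the other TEAD cofactors and partners had an adjusted p-value under 0.05, 4 higher and 3 lower, beside 72.5% of all tested genes, with a median log2 fold change of 0.34. Besides Tead4, Runx1, a transcription factor of blood and skeletal cells, was called upward, with 4123, 4111 and 4288 normalized counts in control and 12041, 11682 and 11652 with dexamethasone. Vgll3, a cofactor that binds TEAD proteins in place of YAP and TAZ, was called downward. Vgll3 had 32603, 32620 and 32587 normalized counts in the control libraries and 8127, 8016 and 7967 in the dexamethasone libraries, a log2 fold change of -2.02 (adjusted p = 4.2e-25 by limma).

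Further genes known as YAP/TAZ targets were called in both directions, like the targets among the 10. Of 26 listed genes 25 were tested, 7 were called upward and 11 downward, beside 22.3% of all tested genes called. At an adjusted p-value under 0.05 alone 7 rose and 16 fell, beside 72.5% of all tested genes, 37.2% higher and 35.2% lower. The median log2 fold change was -0.33 and the median absolute value 1.56, beside 0.45 for all tested genes. Areg, a ligand of the epidermal growth factor receptor, went from 7.34, 4.89 and 6.15 normalized counts in control to 259, 237 and 288 with dexamethasone (log2 fold change 5.21, adjusted p = 1.2e-16 by limma). Myof, a membrane-repair protein, rose, with 31182, 32004 and 32022 normalized counts in control against 104851, 95176 and 96522 with dexamethasone. The pentraxin Ptx3, the vasoconstrictor peptide gene Edn1 and the growth factor Tgfb2 fell, with log2 fold changes of -3.42, -3.23 and -3.04. Thbs1, a matricellular protein and the most counted gene of the list, fell, with 159259, 171377 and 175678 normalized counts in control against 37960, 33816 and 34561 with dexamethasone.

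The remaining CCN family genes were all called, beside 22.3% of all tested genes. Ccn4, Ccn3 and Ccn5 fell, with log2 fold changes of -2.48, -2.02 and -1.70, and Ccn6, at 14.1 to 26.4 normalized counts in control and 59.3 to 89.4 with dexamethasone, rose with a log2 fold change of 1.68. Of the CCN genes, then, Ccn2 and the scarce Ccn6 were higher with dexamethasone and Ccn1, Ccn3, Ccn4 and Ccn5 lower. The muscle ankyrin-repeat relatives of Ankrd1 were barely expressed, Ankrd2 with means of 20.9 and 18.9 and Ankrd23 with 37.8 and 46.9 normalized counts in control and with dexamethasone, and neither had an adjusted p-value under 0.05. Genes of serum response factor and its actin-regulated cofactors, which share targets with YAP and TAZ, were called downward for 7 of 15 tested and upward for 0. Of all tested genes 10.6% were called downward and 11.7% upward. The median log2 fold change of this list was -0.67. At an adjusted p-value under 0.05 alone 10 were lower and 3 higher. Those higher were Zyx (0.87), Fhl2 (0.66) and Mrtfa (0.34), while Srf itself (-0.44) was lower and Mrtfb (-0.026) did not pass. These genes were named after their values were seen. The contractile genes Myl9, Acta2, Tpm1 and Actg2 had log2 fold changes of -4.87, -3.54, -2.19 and -2.12, while Actb and Flna, the genes with the highest means, had -0.22 and -0.038, the value of Flna being -0.15 at an equal total.

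**Figure D4:**
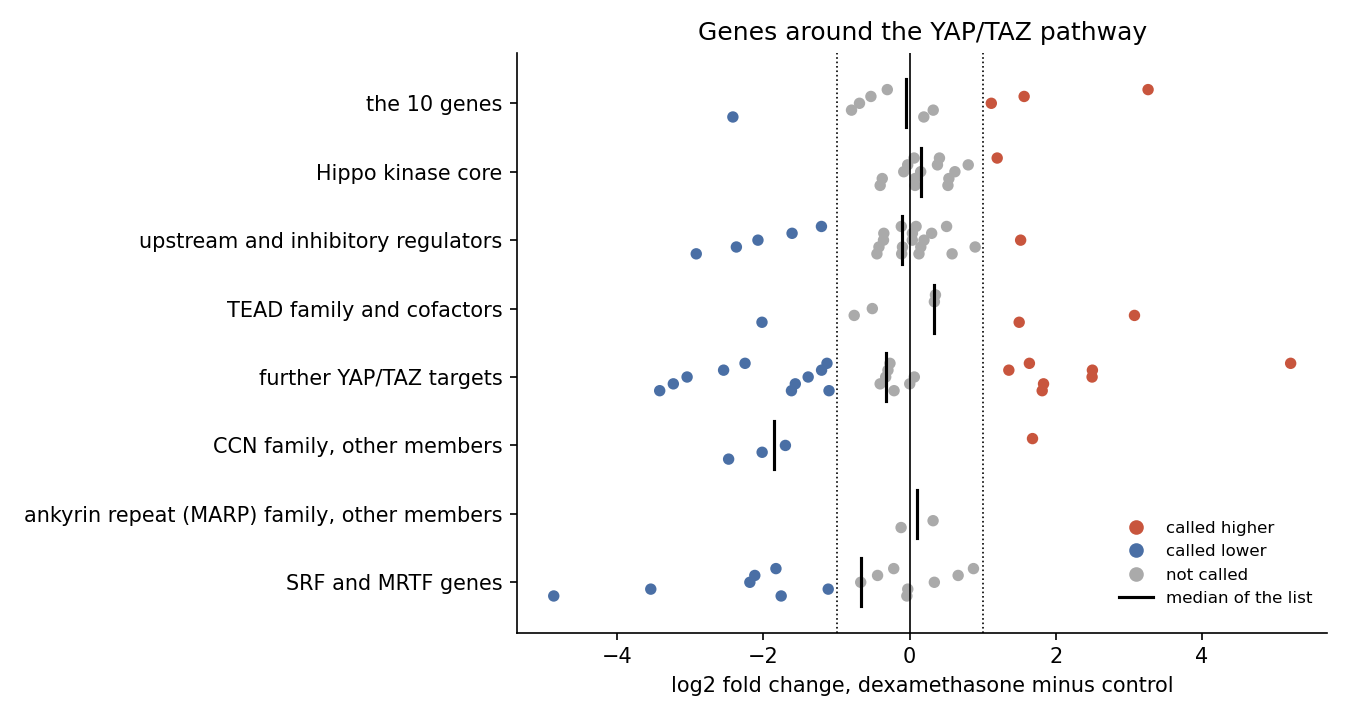
Log2 fold changes (dexamethasone minus control) of the 10 genes and of the tested genes of 7 lists around the pathway, 1 point per gene, red where called higher, blue where called lower and grey where not called, with a line at the median of each list. The further targets spread to both sides, and the called genes of the serum response factor list lie to the left of -1.

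The profiles closest to those of Yap1 and Ccn2 were sought among the 12021 tested genes with a mean of at least 100, by the root mean square distance between log2 profiles centred over the 6 libraries. For Yap1 they were Nup214, Add1 and Smarcd1, at distances of 0.0071, 0.0094 and 0.0099. For Ccn2 they were Hivep3, Exo1 and Alcam, at 0.048, 0.060 and 0.061, with log2 fold changes of 3.22, 3.36 and 3.34. With 2 groups such a distance mostly reflects the fold change.

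Marker genes were read beside these results. All 8 osteoblast markers were called, beside 22.3% of all tested genes, 7 of them downward and Spp1 upward with a log2 fold change of 5.25. Among those lower were the Osteocalcin genes Bglap and Bglap2. Bglap had 98.2 to 122 normalized counts in control and 9.54 to 15.1 with dexamethasone. Bglap2 had 300 to 339 in control and 29.6 to 33.7 with dexamethasone. Col1a1 had means of 961923 in control and 261192 normalized counts with dexamethasone, so that transcripts of Osteocalcin, the protein used for the sort, were scarce beside it. Of 10 endothelial markers 6 were tested, their summed level was 457 to 486 in control and 566 to 612 normalized counts with dexamethasone, most of it Kdr, and Cdh5 and Tie1 had 3 reads or fewer in every library. At an adjusted p-value under 0.05, 4 of the 6 were higher and 0 lower. Of all tested genes 72.5% passed this, 37.2% higher and 35.2% lower. Only Esam was called (log2 fold change 1.20), beside 22.3% of all tested genes. Esam went from 10.1 to 20.5 normalized counts in control to 30.5 to 37.1 with dexamethasone. Pecam1, which encodes CD31, went from 10.1 to 19.3 in control to 20.9 to 29.6 with dexamethasone (0.74). The scarce Tek (-0.75) and Egfl7 (0.12) did not pass. The skeletal muscle markers summed to 609 to 691 and 694 to 764 normalized counts, most of it Des, and Myh4 had 3 reads or fewer in every library. Of the 4 tested, only the scarce Acta1 was called, and it was lower (-1.56), with means of 28.1 in control and 9.28 with dexamethasone. Smooth muscle and pericyte markers summed to 31599 to 33436 and 31280 to 34677 normalized counts, mostly from Pdgfrb and Cspg4, and Abcc9 had 3 reads or fewer in every library. Of the 6 tested, Notch3 (-1.27) and Mcam (-1.08) were called lower by log2 fold change. Blood cell markers summed to 103 to 138 in control and 780 to 834 with dexamethasone, through Itgb2 and Cd53, while Ptprc lay between 1.76 and 5.81 and Hba-a1 had 3 reads or fewer in every library. Of the 4 blood markers tested, Itgb2 and Cd53 were called higher, and the scarce Laptm5 (-1.49) and Coro1a (-1.77) lower. The part of any of these cells in the changes of the 10 genes was not tested.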

How the data were processed

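Per the paper and the submitters' processing notes, the authors aligned reads with STAR 2.7.10a, counted reads by gene and scaled them with DESeq2 1.36.0. What they deposited is thus a signal: reads of a gene over the size factor of its library, termed normalized counts. The notes name GRCm39, while the annotation release and the strand setting are not given in the sources used here. Symbols, exon lengths and overlaps came from GENCODE M21 (GRCm38), in which 28087 of 29616 genes had a symbol, and 4 listed genes had no row matched by symbol. Dividing by the value of 1 read gave whole reads, within 0.01 read, for 100% of values, and 72596611 to 89910728 reads per library. Replicates differed by more than counting noise (chi-square over degrees of freedom 3.52 to 29.6).

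Log2(normalized count + 1) was compared between 3 control and 3 dexamethasone libraries with limma 3.58.1 (R 4.3.3, mean-variance trend). This was done where the mean reached 10, which left 17442 genes, all of them in the Benjamini-Hochberg adjustment. Fold changes are on this scale and understate changes of low genes. Log2 ratios within a library were compared with exact two-sided permutation tests. The 10 genes, the lists and the tests were chosen with earlier results of these data known. The text names the 10 genes and Lats1. From each pathway list it names up to 4 called genes with the largest change and the 2 with the highest mean, and from each marker list the 2 with the highest mean and those near 0. Rassf5, Wwc1, Amotl1, Sav1, Mob1b, Stk3, Zyx, Fhl2, Mrtfa, Srf, Mrtfb and the markers outside this rule were named after their values were seen. Other settings tried were the pseudocount, the filter, the scaling, the trend, the cut-off, a replicate block, single libraries left out, and count models (edgeR 4.0.16, DESeq2 1.42.0) fitted to the recovered reads. Tested on simulated counts of 17361 genes, limma gave 88.8% of 196 changed genes an adjusted p-value under 0.05 in the right direction. Of the unchanged genes, 8 had an adjusted p-value under 0.05, and 0 were called with the fold cut-off added. Far fewer genes changed in the simulation than were called in these data, so it does not give the error rate here.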

Additional observations from a re-analysis of the deposited data

How the results depend on the processing

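Over 19 alternatives for each of the 10 genes, 182 of 190 fold changes kept their direction and their side of the cut-offs. The filters, the trend and the replicate block leave the fold change itself unchanged by construction, so agreement there says little. The pseudocounts also barely move genes at these levels. After quantile normalization Tead1 went to -0.015 and Tead2 to 0.96, short of the cut-off, and the cause was not tested. At an adjusted p-value under 0.05 alone, by construction, 10 of the 10 genes, 76 list genes and 12645 genes in all were called, against 4, 39 and 3894. The 6 genes added were Yap1 (0.32), Tead1 (0.19), Tead3 (-0.31), Ccn1 (-0.80), Ankrd1 (-0.53) and Lats2 (-0.69). With a mean of at least 100, which tests fewer genes, 2170 were called in all. On recovered reads edgeR called 3944 genes (3831 shared) and DESeq2 3870 (3814 shared), with 4 of the 10 genes in each. Each library left out in turn gave 3878 to 3910 genes and 4 of the 10. At the same total the median of all genes shifted to -0.11, and after quantile normalization to -0.075, to be set against each value given there. Yap1 went to 0.21 and 0.15 in these scalings. Among other named genes, Mob1a went to 0.037 and 0.049 and Lats1 to -0.14 and -0.24 there, Tnks2 went to -0.13 after quantile normalization and -0.076 at the same total, and Ankrd2 to between -0.26 and 0.064 when a library was left out. The 5 ratios kept their direction under all alternatives run for them. No pairing of libraries beyond a shared replicate number was given in the sources used here. Same-numbered deviations from the group means correlated at -0.105 to -0.0199, and no library correlated best with its own number. With 3 libraries per group this does not show whether libraries were paired. With the replicate block 3897 genes were called, 4 of the 10 and 39 list genes. Depth limits Ankrd2, Ankrd23, Ccn6 and the low markers.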
